A study of Rattus norvegicus with 34 samples.

Results

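Position 358 of TaqMan card A is 1 of the 384 numbered assay positions of that card, and it was followed over all 17 rat samples measured on it. It was selected on its measured signal, which came earliest in lung among the 12 tissues, so its lead in lung is a description and carries no test. The deposited values are numbered and are not paired with miRNAs, so the position is described by its number and no miRNA name or sequence is given. Each assay on such a card copies 1 small RNA into cDNA and amplifies it by PCR. The value of a well is its CP, the cycle at which fluorescence crosses a threshold, so a lower CP means more template. Wells without amplification are listed at 50, and a CP of at most 35 counted as detected, which is the limit of the study.

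All samples came from Sprague-Dawley rats 4 weeks old, which carried no treatment or engineered allele. The whole tissues were lung, spleen, heart, skeletal muscle, kidney, small intestine, liver, bile duct, pancreas, prostate, salivary gland, and lacrimal gland, and their RNA was isolated with TRIzol. The samples cut from frozen sections by laser microdissection were glomerulus, proximal tubule, intestinal villus, mammary gland, and bronchial gland, and their RNA was isolated with the mirVana PARIS kit and preamplified for 12 cycles. The bronchial gland was cut from trachea. Each sample had 1 library on the card, so no difference between samples can be set against replicate error, and the sources used here do not say how many animals stand behind a library.

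MicroRNAs are short noncoding RNAs that are cut from hairpin precursors and guide the silencing of messenger RNAs. Many of them are restricted to a tissue or a cell type. The lung joins conducting airways, lined by ciliated and secretory epithelium, to alveoli, vessels, and resident immune cells. The bronchial glands lie in the wall of the larger airways beneath that epithelium and secrete mucus and serous fluid through ducts. A whole lung sample holds all of the lung's compartments, whereas the microdissected sample was cut to hold the gland alone. In such bulk samples fewer cells of a type and less RNA per cell cannot be told apart.

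At position 358 the lung had a CP of 18.09. The next tissues were kidney at 30.89, small intestine at 31.18, spleen at 31.78, heart at 32.98, and skeletal muscle at 33.37. These 6 tissues were the only samples in which the position was detected, and lung stood apart from the other 5 by more than those 5 differed among themselves. Bile duct (39.13), prostate (39.66), lacrimal gland (40.24), pancreas (41.79), and salivary gland (43.16) amplified past the limit. Liver did not amplify.

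**Figure D1:**
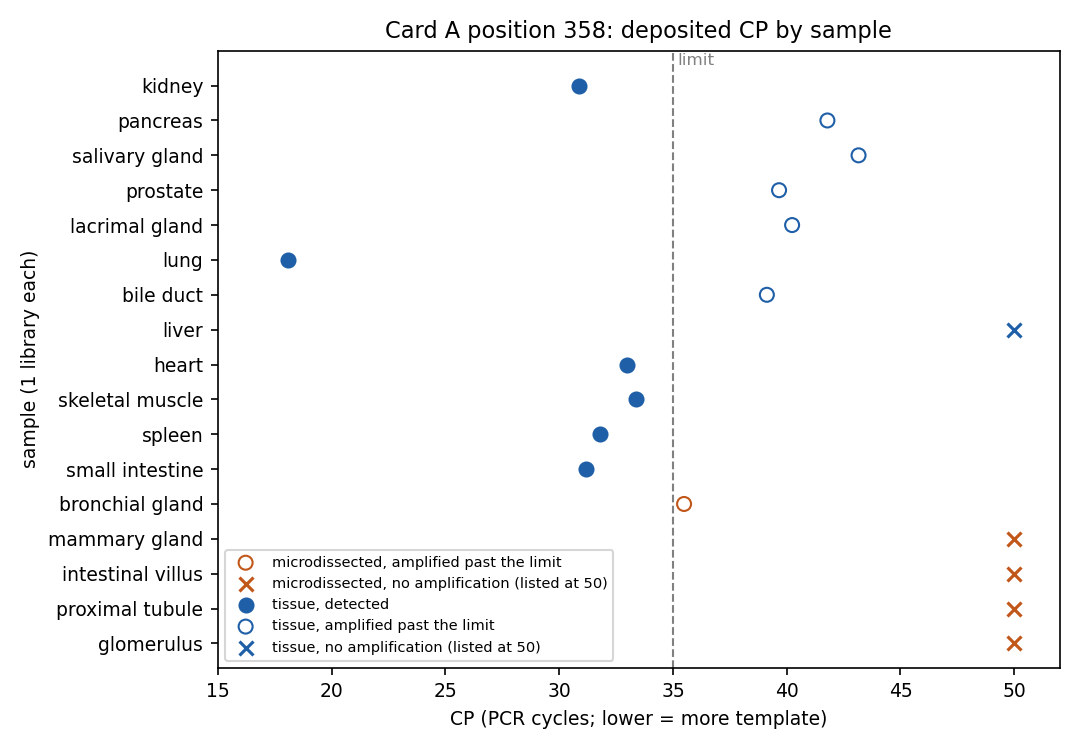
Deposited CP of card A position 358 (x axis, PCR cycles) in each of the 17 samples (y axis, 1 library each), with filled points for detected wells, open points for wells that amplified past the limit of 35 (dashed line), and crosses for wells without amplification. Lung lies at 18.09, kidney is next at 30.89, bronchial gland lies just past the limit at 35.49, and the other 4 microdissected samples did not amplify.

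Libraries differ in how early all of their positions appear, so each column was scaled by subtracting its median CP over the 78 positions detected in all 17 samples. This median was 23.97 in lung, the earliest of the tissues, and 31.15 in pancreas, the latest. After scaling, position 358 had a level of -5.88 cycles in lung, that is, before the median. Its level was 4.33 cycles after the median in kidney, 4.63 in small intestine, 5.59 in skeletal muscle, 6.04 in spleen, and 6.55 in heart. The lead of lung over kidney was 10.21 cycles after scaling and 12.80 cycles without it. If template doubled in each cycle, which these files do not show, the scaled lead would be 1185-fold.

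Undetected wells were set to the limit of 35, so their scaled values are lower bounds. The bound was 3.85 cycles in pancreas, because its median was so late, and the lead of lung over all 11 other tissues was therefore at least 9.73 cycles. This bound, and not a measured value, placed pancreas next to lung, and the CP of 41.79 itself lay 10.64 cycles after the median of pancreas. The bounds were 6.96 cycles in liver, 7.92 in prostate, 8.17 in lacrimal gland, 8.76 in salivary gland, and 9.72 in bile duct.

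Positions 11, 12, 35, and 36 of the card repeat nearly the same CP within a library and give the only measure of spread between wells. Their SD within a tissue was between 0.061 and 0.841 cycles, and it was 0.160 in lung. This spread is that of an abundant RNA and leaves out the spread between animals. Against these wells position 358 came 1.62 cycles later in lung and 13.2 cycles later in kidney, so the lead of lung over kidney was 11.6 cycles on this scale. Among the 5 other tissues with detection, neighbours in the scaled order differed by 0.293 to 0.960 cycles. Without scaling, skeletal muscle came after spleen and heart, and the files give no replicate by which the order of these 5 tissues could be settled.

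**Figure D2:**
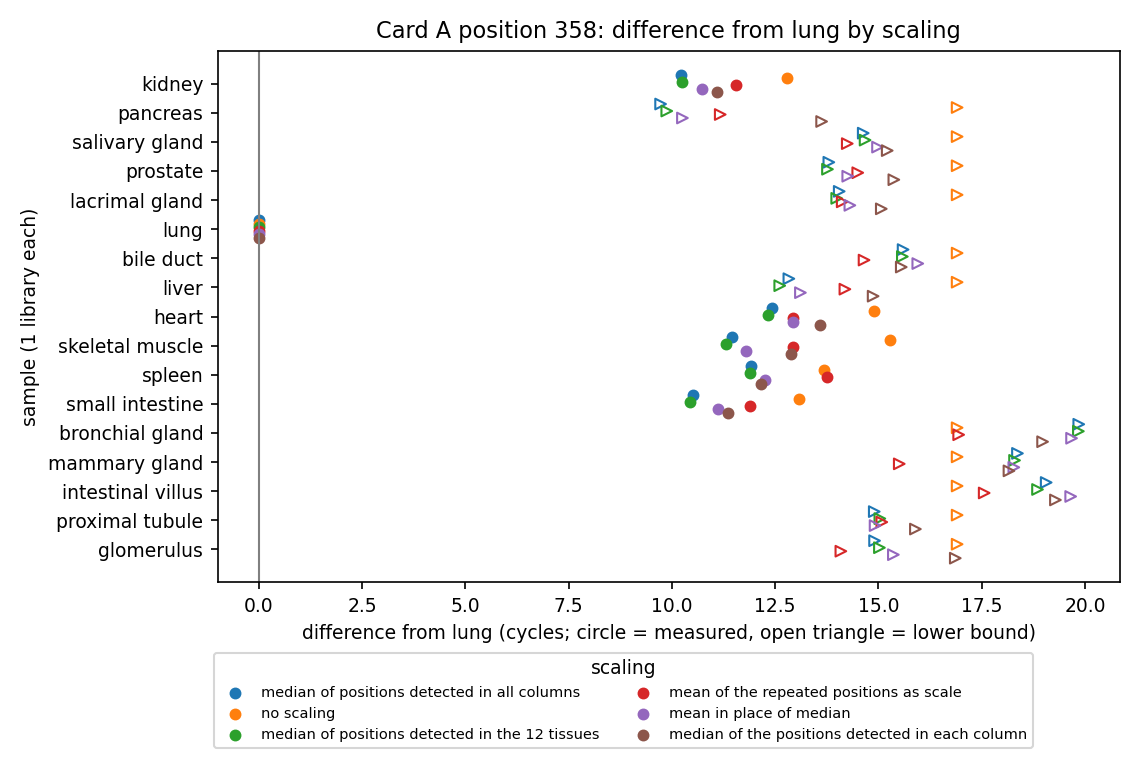
Difference of each sample from lung at position 358 (x axis, cycles) under 6 ways of scaling the libraries (colours), with circles for measured differences and open triangles for lower bounds set by the detection limit. With the median of the positions detected in all samples, the nearest to lung are pancreas, at a lower bound of 9.73 cycles, and kidney, measured at 10.21 cycles, and lung is earliest by all 6 scalings.

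Over the 380 positions of card A other than the repeated ones, position 358 was the only one in which the scaled CP of lung lay at least 3 cycles below every other tissue (0.263% of positions). This is the contrast by which it was chosen. Of the 249 positions detected in lung, 8 had any lead in lung, and the lead after that of position 358 was 1.59 cycles, at position 375. Lung also had the most detected positions of any sample (from 125 in pancreas to 249 in lung). Without scaling it led 9 of the 380 positions by at least 3 cycles. Position 358 had the largest of these unscaled leads, and the next was 6.42 cycles at position 45.

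**Figure D3:**
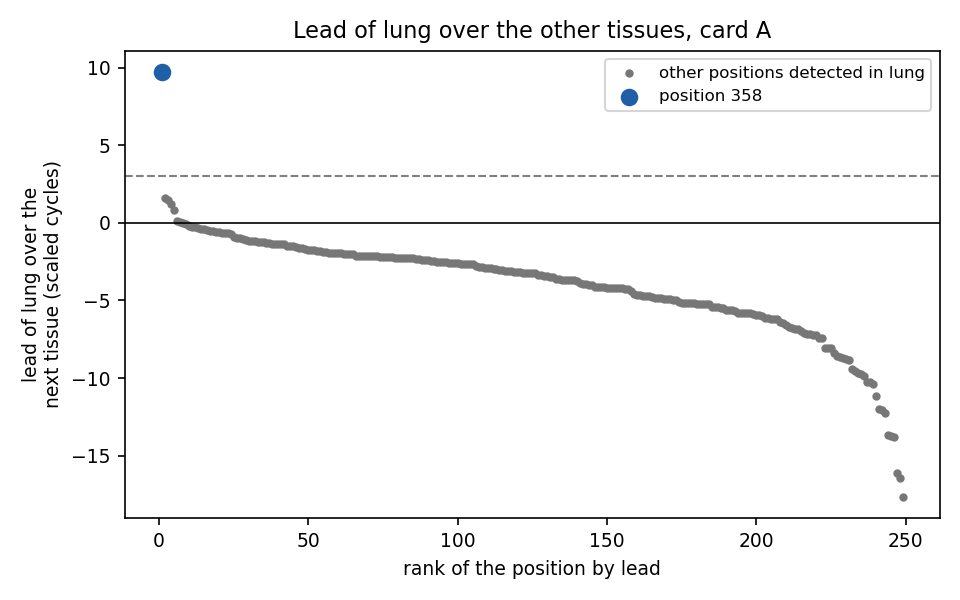
Lead of lung over the next of the other 11 tissues (y axis, scaled cycles) for each of the 249 card A positions detected in lung, ranked by that lead (x axis), with the dashed line at 3 cycles. Position 358 lies at 9.73 cycles and the next position at 1.59.

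The division of the other tissues at position 358 went with a property of the cards. On the cards of bile duct, prostate, pancreas, lacrimal gland, and salivary gland, other positions had values past CP 43, while on the cards of the other 7 tissues no value was later than 42.0. Among the microdissected samples, the cards of bronchial gland and mammary gland also had values past CP 43, so the comparison of lung with bronchial gland crosses the same division of cards. Position 358 was past the limit in all 5 of the former, at 39.13 to 43.16, and was detected at 30.89 to 33.37 in all 5 of the latter other than lung and liver. This pattern was read from position 358 itself, and no other position of the 380 had it (1 of 380, or 0.263%), which is a description only. Wells that amplified past the limit in all 5 tissue cards with late values were found at 5 positions (1.32%), which were position 358 and positions 249, 255, 294, and 347, named after their values were seen. The part of the card runs in this division was not tested. Within the 7 tissues without late values the lead of lung was measured against kidney and was 10.21 cycles.

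Bronchial gland was the microdissected sample nearest in origin to lung, and the comparison asks whether the signal of lung was found in the gland of the airway. Position 358 had a CP of 35.49 in bronchial gland, past the limit, although this sample had been preamplified for 12 cycles. It did not amplify in mammary gland, intestinal villus, proximal tubule, or glomerulus. The position was thus detected in 0 of the 5 microdissected samples and amplified in 1. Whole kidney (30.89) and whole small intestine (31.18) were detected, while proximal tubule, glomerulus, and intestinal villus did not amplify. The lack of detection was therefore shared by all 5 preamplified samples and was not particular to the gland. The part of microdissection and preamplification in it was not tested.

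The library of bronchial gland had 248 detected positions, against 249 in lung, and the earliest median of all samples, at 21.03. The repeated positions lay at 16.44 in bronchial gland and 16.47 in lung. At position 358 bronchial gland came 17.4 cycles after lung without scaling. After scaling it came at least 19.85 cycles after lung with the well set to the limit, and 20.34 cycles after lung with its CP past the limit taken as measured. Preamplification was applied to bronchial gland and not to lung, so its efficiency at this assay enters the difference and was not tested.

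Across the 224 positions detected in both samples, bronchial gland minus lung had a median of 0.50 cycles and an SD of 2.72 over positions, and it ran from -9.45 to 10.79 cycles. Another 25 positions were detected in lung and not in bronchial gland (6.58% of 380), and their lower bounds had a median of 5.24 cycles. The bound of 19.85 at position 358 was the largest of these, and the next was 10.38 at position 334. In all 25, bronchial gland was set to the same 13.97, so these bounds order the positions by lung alone. Position 358 was chosen for its early signal in lung. In the opposite direction, 24 of the 380 positions were detected in bronchial gland and not in lung. Positions share the same pair of libraries and are not replicates of the comparison.

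**Figure D4:**
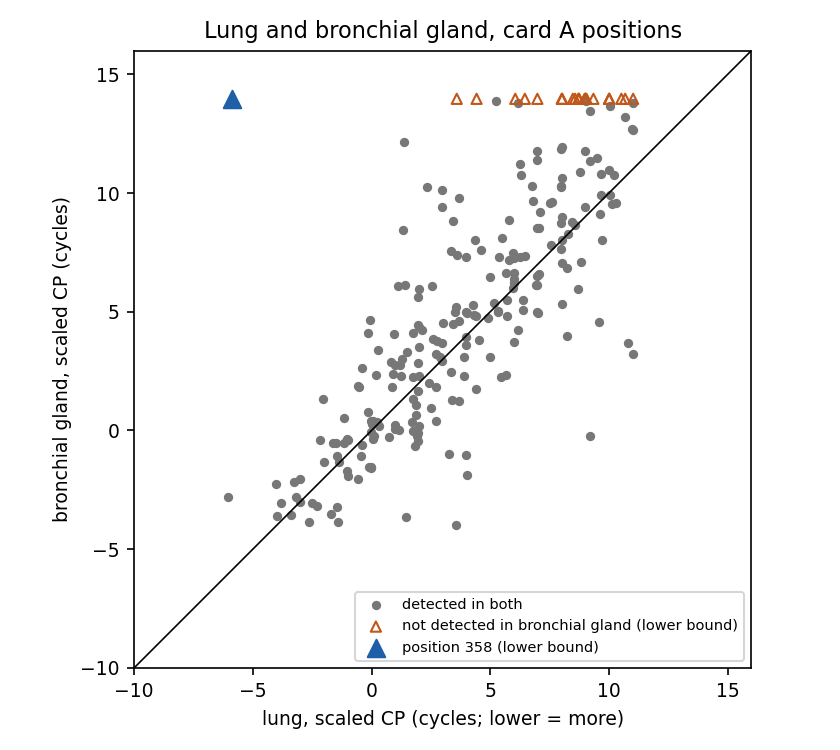
Scaled CP in lung (x axis) and bronchial gland (y axis), both in cycles, for the 249 card A positions detected in lung, with open triangles for positions not detected in bronchial gland, which are lower bounds, and a line of equal values. Position 358 lies at -5.88 in lung and at 13.97 or later in bronchial gland, farther above the line than any other position. All positions not detected in bronchial gland were set to 13.97, so their distance above the line follows lung alone.

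The late amplification in bronchial gland was set against the other microdissected samples. Over the card, 24 of 380 positions amplified in bronchial gland and in none of the other 4 (6.32%). Bronchial gland also had the most amplified positions of the 5, 285 against 198 to 266, and its card was one of those with values past CP 43. Undetected wells have no order, so no gap between bronchial gland and the other microdissected samples can be given at this position.

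Other positions did share lung and bronchial gland. In 3 positions (0.789% of 380) both samples were detected and had a lower scaled CP than all 15 others. Position 375 had a scaled CP of 0.06 in lung and -0.38 in bronchial gland, and the nearest other sample was prostate at 1.65. Position 233 had 0.99 in lung and 0.21 in bronchial gland, with pancreas next at 1.79. Position 45 had 2.60 in lung and 3.85 in bronchial gland, only 0.0038 cycles before the lower bound of pancreas. Pancreas did not amplify at this position, and the next measured sample was heart at 6.55. Lung and bronchial gland differed by at most 1.25 cycles at these 3 positions. The 3 positions were picked for low values in both samples and position 358 for a low value in lung, so the small gap at the former and the large gap at the latter rest in part on the values that chose them. When the tissues with late values were left out, lung led by at least 3 cycles in 4 of 380 positions, position 358 and these same 3. The leads were 4.45 cycles at position 375, 3.95 at position 45, and 3.30 at position 233. The tissues left out included the next to lung at each of them, prostate at position 375 and pancreas at positions 233 and 45. The 3 positions were already picked for an early lung, so this overlap was largely built in.

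**Figure D5:**
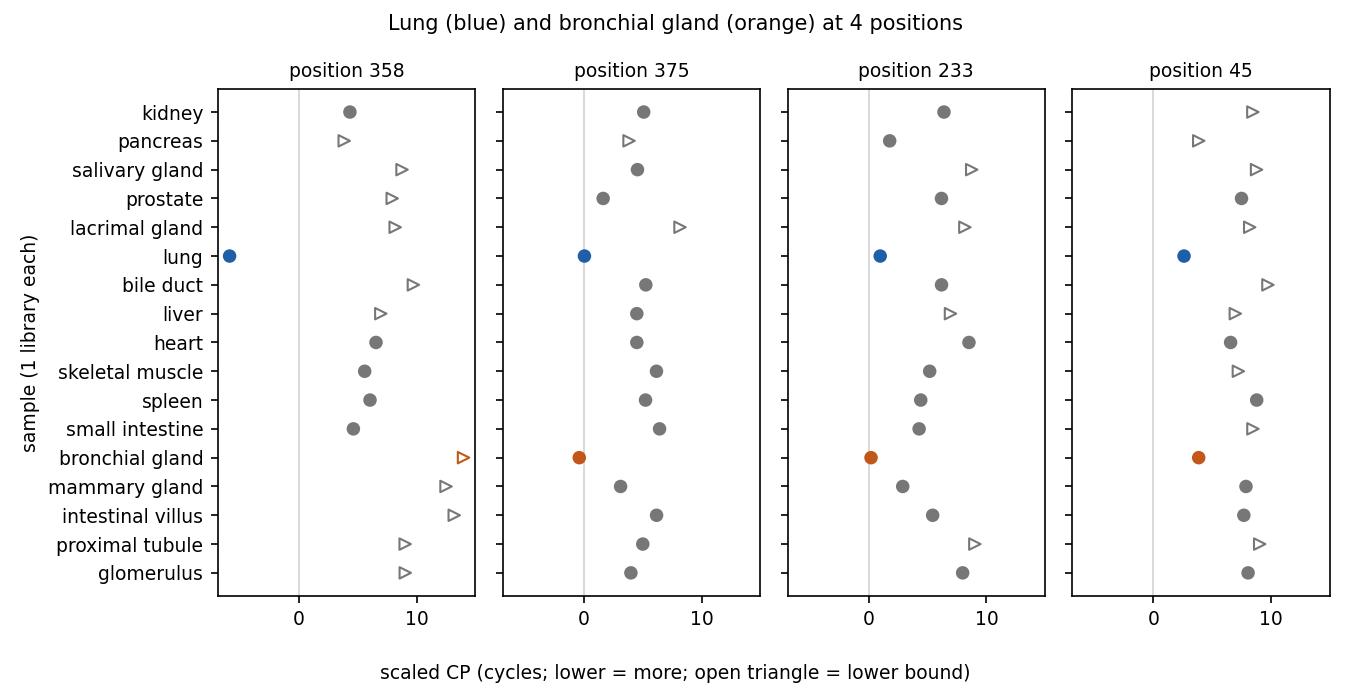
Scaled CP (x axis, cycles) of the 17 samples (y axis, 1 library each) at positions 358, 375, 233, and 45, with lung in blue, bronchial gland in orange, and open triangles for lower bounds. Lung and bronchial gland lie within 1.25 cycles of each other at positions 375, 233, and 45, and at least 19.85 cycles apart at position 358.

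The positions whose pattern was most like that of position 358 over the 17 samples were sought by Pearson correlation of the scaled values, among 323 other positions detected in at least 1 sample. None reached a correlation of 0.8 (0% of 323), and the median over all of them was 0.28. The count moved with the measure, as 3 positions reached 0.8 without scaling and 10 by Spearman correlation, among them position 277 (rho = 0.909) and position 263 (rho = 0.814). The nearest were position 263 (r = 0.796), position 277 (r = 0.784), position 334 (r = 0.756), position 235 (r = 0.734), and position 286 (r = 0.727). All values share the same 17 libraries, and at position 358 the values of 11 samples are bounds set by the scale of the library, so these correlations are a description only. After scaling, lung led the other tissues in none of the 5 positions, and without scaling it led in all 5, by 1.93 to 2.49 cycles. In the scaled values of position 358 lung is the lowest, and bronchial gland is the highest as a lower bound of 13.97. That bound follows from the early median of its library, as its CP of 35.49 was the earliest of the undetected samples. Both samples entered the correlation, so a late scaled value in bronchial gland was built into this choice. Over the 12 tissues alone the correlation was between 0.500 and 0.638 at these 5 positions. It was higher at position 45 (r = 0.797) and position 233 (r = 0.768), where bronchial gland minus lung was 1.25 and -0.78 cycles. At position 375 it was within that range (r = 0.595), with bronchial gland minus lung at -0.44 cycles. These 3 positions were picked for low values in lung and bronchial gland, so an early lung was built into these correlations.

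The signal of lung was not seen at the positions numbered beside it. Position 357 did not amplify in any of the 17 samples. Position 359 was detected in 7 tissues and in 1 microdissected sample, was earliest in small intestine at a CP of 29.61, and in lung amplified only at 40.03. How the numbers are laid out on the card was not given in the sources used here.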

How the data were processed

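The authors ran the cards on an ABI Prism real-time PCR system and read CP values with the SDS and RQ Manager programs. The deposited values are those before U6 normalization. Software versions were not given in the sources used here. Column names were matched to samples through their descriptions and titles. Card B holds other assays and was not used here, and the array definition was not used here. CP values up to 35 were kept, later and missing signals were set to 35, and each column was scaled by its median over the 78 positions detected in all 17 columns, without the 4 repeated positions. The lead of lung is the lowest scaled CP of the other tissues minus that of lung. Precision is limited to the spread between repeated wells, since each sample had 1 library.

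The planned rule for naming positions took position 358, the 5 positions most correlated with it, other positions led by lung by 3 cycles, its numbered neighbours, and any position behind a count of 5 or fewer. The positions behind some alternative counts are not named. The position and the lists were chosen with earlier results of these data known. The division by late values, and the comparisons without pancreas or without the cards with late values, were chosen after seeing the data. The search was run on simulated data with planted leads well above 3 cycles. Finding them was fixed by that setting, so this checks the code only. Python 3.11.15, numpy 2.4.6, pandas 2.3.3, and matplotlib 3.10.9 were used.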

Additional observations from a re-analysis of the deposited data

How the results depend on the processing

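At position 358 lung was earliest by every scaling and limit tried. Its lead over the next of the tissues was at least 9.73 cycles, and was 12.80 without scaling, at least 11.17 when scaled to the mean of the repeated positions, 11.09 with the median of the positions detected in each column, 10.64 with a limit of 40, and at least 6.61 with a limit of 32, where the bound of pancreas moves by construction. With each sample left out when the reference positions were chosen, the lead ran from 9.72 to 9.85 cycles. Bronchial gland came at least 19.85 cycles after lung, and 16.91 without scaling, 16.94 with the repeated positions, 18.98 with the median of each column, and 16.37 with a limit of 32, all lower bounds. It came 21.13 cycles after lung as measured with a limit of 40. The value with undetected wells at 40 was 24.85, which replaces the CP of 35.49 by 40 and is neither a bound nor a measurement. The bound of 19.85 ran from 19.59 to 19.97 cycles with each sample left out when the reference positions were chosen. A shift under 0.841 cycles, the largest SD of the repeated wells in a tissue, was taken as no change. Of the 17 samples the position was detected in 6, and in 4 with a limit of 32 and 9 with a limit of 40. With a limit of 40 it was detected in 1 microdissected sample, bronchial gland, in place of 0. A gap between bronchial gland and the other microdissected samples could not be given at the limit of 35, because all were undetected. With a limit of 40 its lower bound was -1.03 scaled cycles, which does not order these samples.

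Positions led by lung by 3 cycles numbered 1 of 380, and 9 without scaling. They numbered 4 with the median of each column or without the tissues with late values, and 3 without pancreas. With a limit of 40, or with undetected wells at 40, they numbered 2. Positions with lung and bronchial gland both earliest numbered 3 of 380, and 11 without scaling, 6 with the median of each column, and 1 with a limit of 32. Positions with a correlation of at least 0.8 numbered 0 of 323, and 3 without scaling, 1 with undetected wells at 40, and 10 by Spearman correlation. The causes were not tested. No paired analysis was possible because each sample has 1 library.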
